A study of Bos taurus with 6 samples.

Results

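Peritubular myoid cells form a thin contractile sheet around the seminiferous tubules of the testis. They shorten in the way smooth muscle does, when calcium and calmodulin activate a kinase that phosphorylates the regulatory light chain of myosin, and myosin then pulls on actin filaments. Their contraction moves sperm and fluid along the tubule, and they also help to build the basement membrane on which Sertoli cells and spermatogonia rest. The genes described here encode 9 proteins of this contractile apparatus, ACTA2, ACTG2, MYH11, MYLK, CNN1, TAGLN, SMTN, LMOD1 and DES. They were taken by symbol, without regard to their values, from a table of 47249 genes. Each symbol matched 1 entry, all 9 passed the filter on low values (1 FPKM or more in 3 or more of the 6 libraries), and 18115 genes passed it in all.

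The samples were testes of untreated Wandong cattle (Bos taurus), a native breed, from 3 immature calves, 3 months old, and from 3 mature bulls, 3 years old. The animals were selected as healthy, the tissue was collected at slaughter, and each library of total RNA depleted of ribosomal RNA came from 1 animal. Levels are given as FPKM, a fragment count scaled to the length of the transcript and to the number of mapped fragments, so that genes of different length can be compared. The deposited tables hold no counts, so the number of reads behind a value is unknown here. The smooth muscle proteins are not particular to peritubular myoid cells, because the walls of testicular vessels hold them too, and in whole testis the source of the RNA cannot be told apart. Nor can fewer cells of a type be told apart from less RNA per cell.

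The library labelled calf 3 stood apart from the others. The summed FPKM of 5 genes of neural tissue was 13190 in it and between 4.59 and 7.00 in the other 5 libraries. INSL3, a hormone gene of Leydig cells, stood at 0.121 FPKM in it and at 1041 or more in the others. It is called calf 3 below for its label only, and the results on the 9 genes are given with and without it. Of the 9 contractile genes, 3 (DES, MYLK and CNN1) were at least 4-fold lower in calf 3 than in the other calves on the log2(FPKM + 1) scale, as were 5.45% of all genes tested. ACTA2 and ACTG2 were slightly higher in calf 3 than in the mean of the other calves, by 0.30 and 0.14 on that scale.

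The gene entries ACTA2, MYH11 and ACTG2 were higher in bulls than in calves, by about 3 to 4 times on the fitted scale, whether or not calf 3 was counted. Most of the ACTG2 entry in bulls was an antisense-named transcript. The actin transcript itself, ACTG2-201, was also higher in bulls, but by less than 2-fold on the fitted scale, and was not called. The TAGLN entry was also higher in bulls, by just under 2-fold. Nearly all of its value was an assembled transcript that also spans the gene PCSK7, and the annotated transcript TAGLN-201 stood at no more than 0.122 FPKM in any library. MYLK and DES were lower in bulls than in calf 1 and calf 2, by more than 2-fold, and this difference was not called when calf 3 was included. CNN1, SMTN and LMOD1 passed the test in neither fit. A gene was called when its adjusted p was below 0.05 (limma on log2(FPKM + 1), two-sided, Benjamini-Hochberg over all genes tested) and its change was at least 2-fold. With all libraries, 3 of the 9 genes were called higher in bulls and 0 lower, where 35.7% of all genes tested were called higher and 9.61% lower. Without calf 3 the numbers were 3 higher and 2 lower, against 37.9% and 13.6% of all genes. The share of members called in either direction was therefore near that of all genes, and the values of the single genes are what follows.

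**Figure D1:**
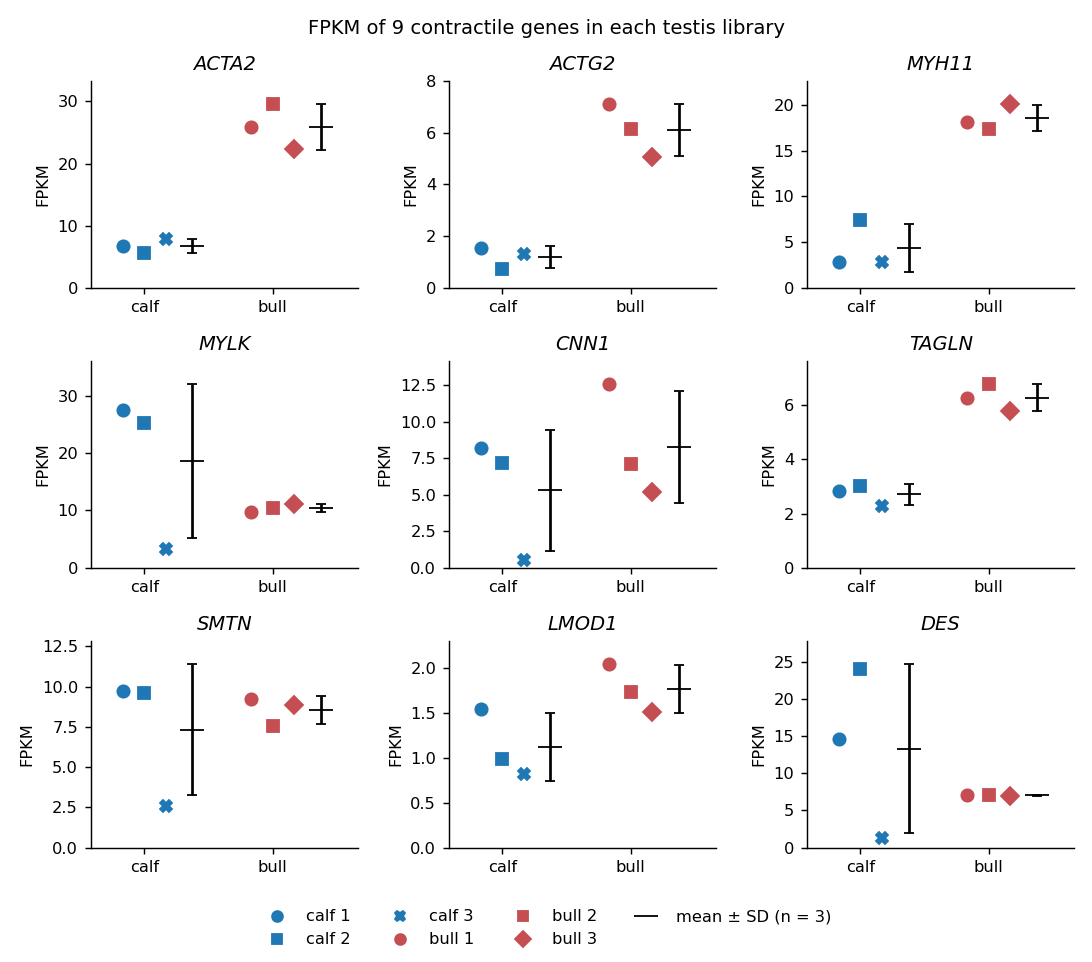
FPKM (vertical axes, from 0) of the 9 contractile genes in each library, with 1 panel for each gene, calves in blue and bulls in red, and the mean ± SD of each group of 3 in black. ACTA2, ACTG2, MYH11 and TAGLN do not overlap between the groups, and calf 3 (cross) lies far under the other calves for MYLK, CNN1, SMTN and DES.

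Actins form the filament on which myosin pulls. ACTA2 (smooth muscle alpha-actin, the usual marker of peritubular myoid cells; ENSBTAG00000014614, chromosome 26, 10626803 to 10679430) stood at 6.68, 5.64 and 7.81 FPKM in calf 1 to calf 3. In bull 1 to bull 3 it stood at 25.8, 29.6 and 22.3 FPKM. Every bull exceeded every calf, calf 3 included, and the group means were 6.71 ± 1.09 and 25.9 ± 3.66 FPKM (SD, n = 3 each). ACTA2 rose in bulls by 1.80 on the log2 scale (SE 0.19, adjusted p = 0.000398), and by 1.91 without calf 3 (adjusted p = 8.8e-05). It was called in each of the 18 alternatives tried, at 1.22 to 2.39. From being higher than 57.6% of the genes tested in calf 1 and calf 2, it came to be higher than 81.0% of them in bulls.

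ACTG2 (smooth muscle gamma-actin, ENSBTAG00000015441, chromosome 11, 10706953 to 10761462) was listed at 1.53, 0.704 and 1.28 FPKM in the calves. In the bulls it was listed at 7.09, 6.14 and 5.07 FPKM, again with no overlap between the groups. The change was 1.72 on the log2 scale (SE 0.22, adjusted p = 0.00104), and 1.77 without calf 3 (adjusted p = 0.000607). The entry joins several transcripts, and most of its value in bulls did not come from the transcript that bears the name of the actin. The transcript entry ACTG2-AS1, which spans 10706953 to 10748221 and shares 11320 of the 24561 bases of the ACTG2-201 span, supplied 65.3% of the FPKM of the gene in bulls and 27.5% in calf 1 and calf 2. ACTG2-AS1 stood at 0.327, 0.287 and 0.627 FPKM in the calves and at 4.81, 3.84 and 3.30 FPKM in the bulls. It rose in bulls by 1.81 (adjusted p = 0.000512). ACTG2-201 stood at 0.934, 0.253 and 0.414 FPKM in the calves and at 1.95, 1.99 and 1.53 FPKM in the bulls, a difference of 0.90 (adjusted p = 0.0103) that passed the p threshold and not the fold. Over the 18 alternatives ACTG2-201 changed by 0.04 to 1.74 and was called higher in 5. The name marks ACTG2-AS1 as an antisense transcript. The libraries kept the strand, but whether the counting used it is not given in the sources used here, so reads of the pair may have been exchanged. DGUOK, a gene of mitochondrial nucleotide metabolism whose span shares 23462 bases with the entry, stood between 17.1 and 25.2 FPKM in all libraries and was not called.

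**Figure D2:**
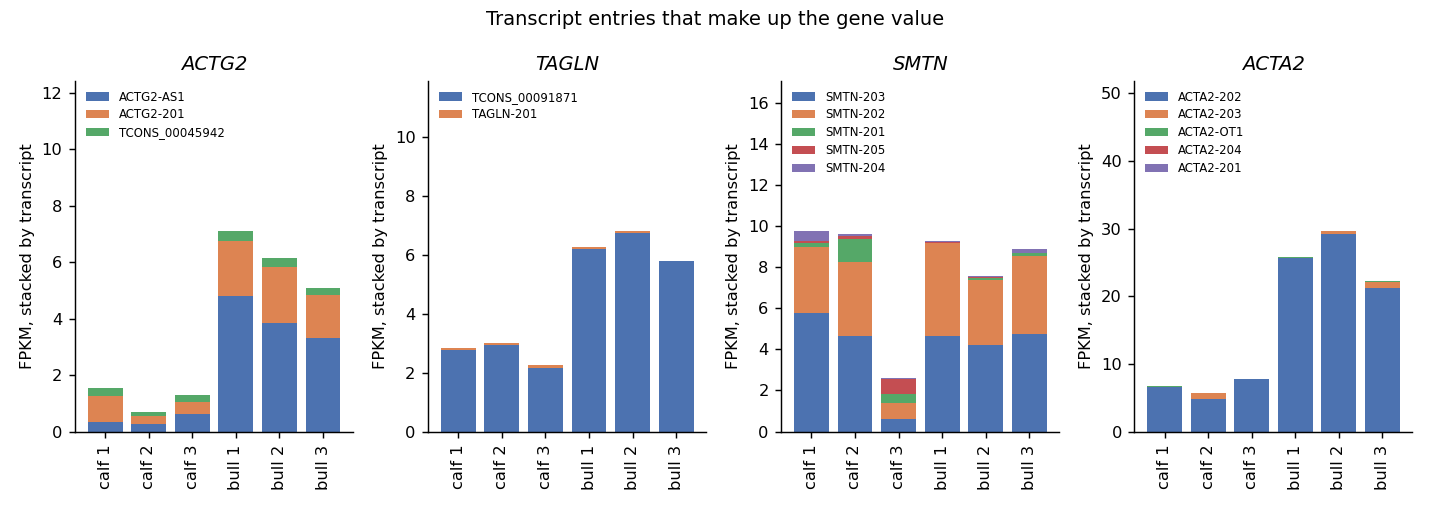
FPKM of the transcript entries of ACTG2, TAGLN, SMTN and ACTA2, stacked for each library (vertical axes from 0). In bulls ACTG2-AS1 makes up most of the ACTG2 value, the assembled transcript TCONS_00091871 makes up nearly all of the TAGLN value in every library, and ACTA2-202 makes up nearly all of the ACTA2 value.

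Apart from ACTG2 and TAGLN, the members rested mainly on annotated transcripts. The table of transcripts held 25 entries for the 9 genes, of which 11 passed the filter. ACTA2-202 held 98.0% of the FPKM of ACTA2 in bulls, MYH11-201 held 94.9% of that of MYH11, and DES and CNN1 had 1 transcript each. With all libraries, 4 of the 11 transcripts were called higher in bulls and 0 lower, against 34.8% and 9.37% of the 23212 transcripts tested. The called entries were ACTA2-202, MYH11-201, ACTG2-AS1 and the transcript of TAGLN described below. Without calf 3 the numbers were 3 higher and 2 lower (36.1% and 13.1% of all transcripts), since the TAGLN transcript came under 2-fold and MYLK-201 and DES-201 were called lower.

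MYH11 encodes the smooth muscle myosin heavy chain, the motor of the filament (ENSBTAG00000015988, chromosome 25, 14124964 to 14252413). The calves stood at 2.80, 7.36 and 2.76 FPKM, so calf 2 held about 2.63 times the level of calf 1. The bulls lay close together at 18.1, 17.4 and 20.1 FPKM, and the lowest bull was above the highest calf. MYH11 rose in bulls by 1.99 on the log2 scale (SE 0.35, adjusted p = 0.0036), and by 1.79 without calf 3 (adjusted p = 0.00269), with a range of 1.24 to 2.37 over the alternatives, in all of which it was called. The whole MYH11 locus of 127450 bases lies inside the span of NDE1, a gene of the mitotic spindle and dynein. NDE1 itself stood at 4.66, 4.71 and 6.24 FPKM in calves and at 6.34, 6.13 and 6.41 FPKM in bulls, and was not called (0.24, adjusted p = 0.281).

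MYLK encodes myosin light chain kinase, the enzyme that starts contraction (ENSBTAG00000014567, chromosome 1, 67982278 to 68068472). Its level was 27.5 FPKM in calf 1, 25.2 FPKM in calf 2 and 3.15 FPKM in calf 3. The bulls stood at 9.68, 10.4 and 11.1 FPKM, below both of the first calves and above calf 3. With all libraries the difference was -0.36 (SE 0.76, adjusted p = 0.711, 95% interval -2.21 to 1.49). Without calf 3, MYLK fell by 1.26 on the log2 scale (SE 0.11, adjusted p = 0.000137). The size of the MYLK change and its call thus depended on calf 3. Its sign turned when another calf was left out instead, to 0.13 without calf 1 and to 0.06 without calf 2, neither of them called. Nearly all of the value, 99.9% in bulls, came from the transcript MYLK-201.

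DES encodes desmin, the intermediate filament protein that ties contractile filaments to the cell border (ENSBTAG00000005353, chromosome 2, 107351796 to 107358964), and it had the same shape as MYLK. The calves stood at 14.7, 24.0 and 1.32 FPKM, the widest range of any member, 18.2-fold. The bulls stood at 7.08, 7.10 and 6.91 FPKM, a coefficient of variation of 1.47% where the median over all genes tested was 13.4%. With all libraries the difference was -0.27 (SE 0.87, adjusted p = 0.81). Without calf 3, DES fell in bulls by 1.30 on the log2 scale (adjusted p = 0.00158). MYLK and DES were each called lower in the same 4 of 18 alternatives, those that left out calf 3 with the FPKM as deposited or with quantile or median of ratios scaling, and the one that weighted the libraries by their spread. When the libraries without calf 3 were rescaled to an equal sum of FPKM, the changes were -0.79 for MYLK and -0.84 for DES. Both passed the p threshold and not the fold (adjusted p = 0.00166 and 0.00879), so neither was called.

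CNN1, SMTN, TAGLN and LMOD1 encode proteins that bind the actin filament and are typical of differentiated smooth muscle. CNN1 (calponin 1, which slows the cycle of actin and myosin; ENSBTAG00000011207, chromosome 7, 15883405 to 15891295) stood at 8.16, 7.18 and 0.545 FPKM in the calves. In the bulls it stood at 12.6, 7.06 and 5.21 FPKM, a coefficient of variation of 46.2%, the widest among the members. The bulls lay on either side of calf 1 and calf 2. The difference was 0.85 (SE 0.75, adjusted p = 0.371), and without calf 3 it was 0.02 (adjusted p = 0.955) with a 95% interval of -0.78 to 0.82, which leaves room for a change of nearly 2-fold in either direction.

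SMTN (smoothelin, a protein of contractile smooth muscle; ENSBTAG00000003100, chromosome 17, 69938495 to 69961375) stood at 9.74, 9.63 and 2.61 FPKM in the calves. The bulls stood at 9.25, 7.56 and 8.87 FPKM, just under calf 1 and calf 2. The difference was 0.36 with all libraries (SE 0.45, adjusted p = 0.535) and -0.16 without calf 3 (adjusted p = 0.294, 95% interval -0.49 to 0.16). Its direction also depended on the scaling, at -0.20 with quantile normalization of all libraries. Its 2 tested transcripts, SMTN-203 and SMTN-202, held 53.0% and 44.7% of its FPKM in bulls, and neither was called.

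TAGLN (transgelin, also named SM22 alpha; ENSBTAG00000007196, chromosome 15, 27888817 to 27924346) stood at 2.82, 3.02 and 2.28 FPKM in the calves and at 6.26, 6.79 and 5.80 FPKM in the bulls. The groups did not overlap. Its change of 0.98 (SE 0.17, adjusted p = 0.00383) lay just under the 2-fold threshold, as did that of 0.89 without calf 3 (adjusted p = 0.00136), and it was called in 7 of the 18 alternatives. Here too the entry needs care. The annotated transcript TAGLN-201 stood at no more than 0.122 FPKM in any library, and 99.2% of the value in bulls belonged to TCONS_00091871, an assembled transcript that covers all 5691 bases of TAGLN-201 and the whole span of the neighbouring PCSK7, a protease gene. That transcript stood at 2.77, 2.93 and 2.16 FPKM in the calves and at 6.20, 6.73 and 5.78 FPKM in the bulls. PCSK7, counted as its own gene, stood between 4.23 and 5.89 FPKM in all libraries and was not called (-0.14, adjusted p = 0.516).

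LMOD1 (leiomodin 1, which starts new actin filaments in smooth muscle; ENSBTAG00000021576, chromosome 16, 80548214 to 80576112) was low everywhere. The calves stood at 1.54, 0.992 and 0.819 FPKM and the bulls at 2.05, 1.73 and 1.51 FPKM, with bull 3 just under calf 1. The difference was 0.40 (SE 0.18, adjusted p = 0.103, 95% interval -0.03 to 0.82), and 0.29 without calf 3 (adjusted p = 0.164). With quantile normalization it was -0.58 (adjusted p = 0.0351), past the p threshold and not the fold.

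**Figure D3:**
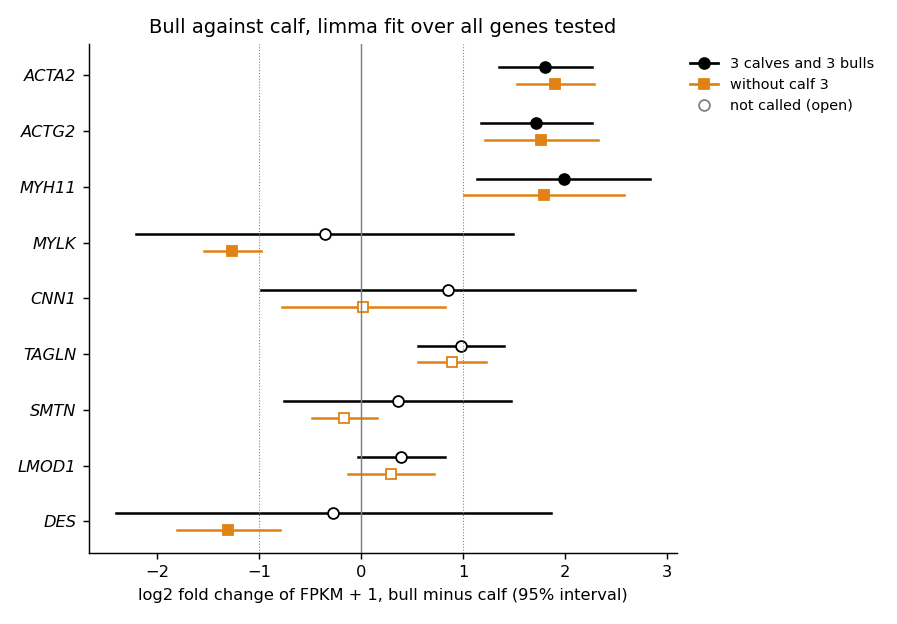
Log2 fold change of FPKM + 1, bull minus calf, with its 95% interval (horizontal axis), for the 9 genes, from all 6 libraries (black) and without calf 3 (orange). Filled symbols mark called genes, and dotted lines mark a 2-fold change. MYLK and DES go from wide intervals across 0 to -1.26 and -1.30 without calf 3, and ACTA2, ACTG2 and MYH11 stay above 1.

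The 4 genes whose groups did not overlap were ACTA2, ACTG2, MYH11 and TAGLN, all higher in bulls, where 46.1% of all genes tested were higher in this way and 21.3% lower. The plot of fold changes shows how much the intervals of the other members owed to calf 3. The median change over the 9 genes was 0.85 with all libraries and 0.29 without calf 3, beside 0.43 over all genes tested in either fit. With quantile normalization these medians were 0.17 and -0.26, so LMOD1 and SMTN moved below 0 while ACTA2, MYH11 and ACTG2 remained called higher.

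The order of the levels was not the same in the ages. In bulls the mean FPKM ran from ACTA2 (25.9 ± 3.66) through MYH11 (18.5 ± 1.41) and MYLK (10.4 ± 0.690) to SMTN (8.56 ± 0.883), CNN1 (8.28 ± 3.83) and DES (7.03 ± 0.103), and then to TAGLN (6.29 ± 0.496), ACTG2 (6.10 ± 1.01) and LMOD1 (1.77 ± 0.267; SD, n = 3). Among neighbours in this order, SMTN overlapped CNN1, CNN1 overlapped DES, and TAGLN overlapped ACTG2. Genes further apart crossed too. CNN1 was above MYLK in bull 1 (12.6 against 9.68 FPKM) and below TAGLN in bull 3 (5.21 against 5.80 FPKM). ACTG2 was just above DES in bull 1 (7.09 against 7.08 FPKM). In calf 1 and calf 2 MYLK came first (26.3 ± 1.66) and DES next (19.3 ± 6.63; SD, n = 2), ACTA2 stood behind SMTN and CNN1, and LMOD1 and ACTG2 came last with overlapping values. In calf 3 ACTA2 was the highest and CNN1 the lowest. The 9 genes together summed to 75.4, 83.7 and 22.6 FPKM in the calves and to 97.9, 93.8 and 86.8 FPKM in the bulls.

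Because FPKM depends on what else a library holds, members were also set against genes of the same library. Of 14 ratios formed, 9 did not overlap between the calves and the bulls. Of the single genes tested, 46.1% were higher in bulls without overlap and 21.3% lower, and no such share was formed over ratios. With 3 libraries against 3, the smallest two-sided p of an exact permutation test is 0.1, and the ratios named here as not overlapping reached it (0.156 after Benjamini-Hochberg adjustment over the 14), so that none could pass 0.05.

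ACTB encodes the cytoplasmic beta-actin of nearly every cell, and the ratio of ACTA2 to ACTB was 0.0107, 0.00842 and 0.0146 in the calves. In the bulls it was 0.0859, 0.116 and 0.0730. The bull mean was 9.58 times that of calf 1 and calf 2, and the groups did not overlap. Both sides of the ratio moved, since ACTB fell from 623, 670 and 537 FPKM in calves to 301, 255 and 305 FPKM in bulls (-1.08, adjusted p = 0.0100).

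MYH9 and MYH10 encode the heavy chains of non-muscle myosin. The ratio of MYH11 to MYH9 was 0.0485, 0.137 and 0.134 in the calves and 1.81, 2.75 and 1.89 in the bulls. In the calves the non-muscle chain was thus the more abundant per length, and in the bulls the smooth muscle chain was. The ratio of MYH11 to MYH10 was 0.244, 0.741 and 0.110 in the calves and 3.01, 3.13 and 2.53 in the bulls, with the same change of order.

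CNN3, the calponin of non-muscle cells, gave a ratio of CNN1 to CNN3 of 0.126, 0.111 and 0.0102 in the calves and 1.94, 0.892 and 0.577 in the bulls. Beside calf 1 and calf 2, that gap lay on the side of CNN3, which fell in bulls by 2.91 on the log2 scale without calf 3. With all libraries CNN3 fell by 2.82 (adjusted p = 5.5e-05). In calf 3 CNN1 was low as well, at 0.545 FPKM against 5.21 or more in the bulls. The ratio of CNN1 to CNN2 overlapped between the groups. The ratio of DES to VIM, the gene of the intermediate filament of mesenchymal cells, was 0.0499, 0.0899 and 0.0302 in the calves and 0.134, 0.137 and 0.122 in the bulls. It was higher in all bulls although DES itself was lower than in calf 1 and calf 2. VIM stood at 293.6, 267.4 and 43.8 FPKM in the calves and at 52.8, 51.7 and 56.5 FPKM in the bulls. Without calf 3 it fell by 2.37 (adjusted p = 5.9e-06), and with all libraries its change of -1.48 was not called (adjusted p = 0.137).

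**Figure D4:**
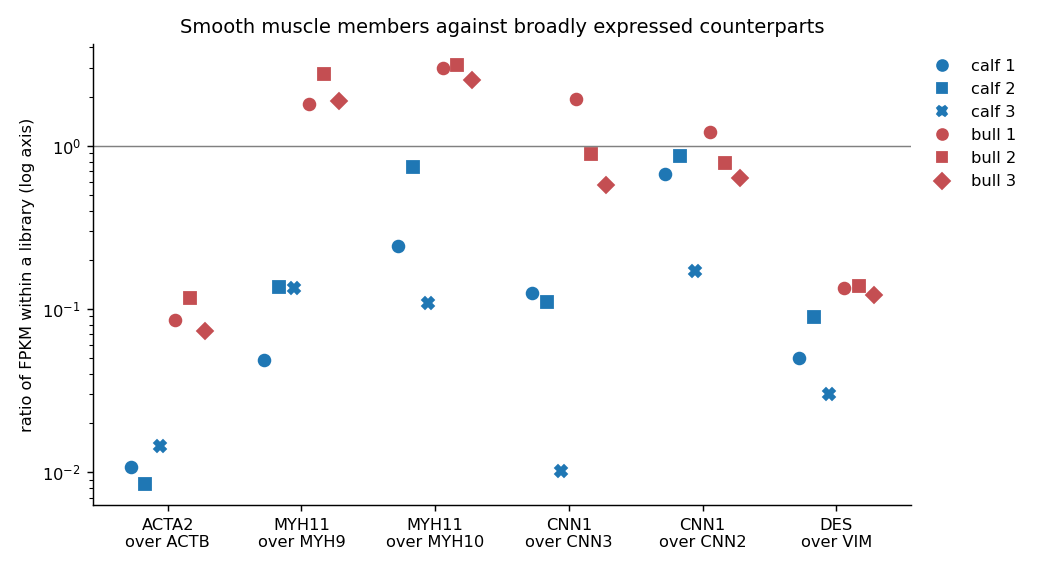
Ratio of the FPKM of a smooth muscle gene to that of a broadly expressed counterpart within each library (vertical axis, log scale; the line marks equal levels), calves in blue and bulls in red. MYH11 is below MYH9 and MYH10 in every calf and above both in every bull, and the ratio of CNN1 to CNN2 overlaps between the groups.

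In the rest of the actin and myosin apparatus no gene was called higher, as ACTA2 and MYH11 were. Of its 24 listed genes, 23 were tested and 0 were called higher, 8 lower and 15 neither, with a median of -1.06, beside 35.7% higher and 9.61% lower over all genes tested. Without calf 3, 12 were lower and 0 higher. Not all went down, since ACTN1, an actinin gene, was higher in every bull than in every calf, as were 46.1% of all genes tested. Its change of 0.91 (adjusted p = 0.137) was not called, nor was that of 0.40 without calf 3. ACTN1 was called in 1 of the 18 alternatives, and its sign turned with the scaling (-0.15 at the lowest). CNN3 went from 64.7, 64.9 and 53.8 FPKM to 6.47, 7.92 and 9.02 FPKM. MYH9 (57.7, 53.7 and 20.7 FPKM in calves) stood at 10.0, 6.33 and 10.6 FPKM in bulls and fell by 2.07 (adjusted p = 0.00798). PDLIM3, a scaffold protein of actin bundles, fell by 2.03 (adjusted p = 0.0446) and TPM4, a tropomyosin of non-muscle filaments, fell by 1.68 (adjusted p = 0.0187). Without calf 3 all of these were again called lower, at -2.91 for CNN3, -2.53 for MYH9, -2.83 for PDLIM3 and -2.15 for TPM4.

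Other partners of the members were not called with all libraries. MYL9, the light chain that MYLK phosphorylates, was at 16.6, 13.5 and 3.16 FPKM in calves and at 18.7, 13.2 and 13.7 FPKM in bulls (0.65, adjusted p = 0.364, and 0.00 without calf 3). The ratio of MYLK to MYL9 was lower in each bull (0.518, 0.789 and 0.806) than in each calf (1.66, 1.86 and 0.999). TPM2, a muscle tropomyosin, was at 12.6, 20.8 and 12.0 FPKM in calves and at 19.1, 18.7 and 17.1 FPKM in bulls (0.30, adjusted p = 0.326, and 0.16 without calf 3), and its sign turned with the scaling (-0.51 at the lowest). CALD1 (caldesmon) changed by -1.25 (adjusted p = 0.063), by -1.76 without calf 3 (adjusted p = 0.000339), and was called lower in 8 of the 18 alternatives. ACTG1, the cytoplasmic gamma-actin, changed by -0.59 (adjusted p = 0.0681) and MYH10 by -1.04 (adjusted p = 0.0527). Neither was called, with or without calf 3 (-0.60 and -0.65 without it), and MYH10 was called in 5 alternatives.

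Among the genes that control contraction, 5 of 16 tested were called higher and 1 lower (8 and 1 without calf 3), shares close to the 35.7% and 9.61% of all genes, so the list did not stand out by its counts. CALM2 and CALM3 encode calmodulin, the calcium sensor that activates MYLK. CALM3 rose from 59.9, 64.6 and 214.8 FPKM to 326.7, 271.5 and 293.9 FPKM (1.65, adjusted p = 0.0357), and CALM2 rose by 1.49 (adjusted p = 0.0141). ITPR1, a channel that releases calcium from stores, rose by 1.20 (adjusted p = 0.00269). PPP1CB, the catalytic subunit of the phosphatase that reverses the action of MYLK, fell by 1.36 (adjusted p = 0.00576). Without calf 3 the changes were 2.24 for CALM3, 1.82 for CALM2, 1.27 for ITPR1 and -1.57 for PPP1CB, all called, and CALM3 was called in 9 of the 18 alternatives. All of these genes are also used by other cells of the testis. With quantile normalization 1 of the 16 was called higher and 3 lower.

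Of the ligands and receptors listed for these cells, 2 of 15 tested were called higher and 7 lower (1 and 7 without calf 3, and 0 and 8 with quantile normalization). Over all genes tested, 35.7% were called higher and 9.61% lower, and 37.9% and 13.6% without calf 3. OXTR, the oxytocin receptor, was listed at 0.211, 0.202 and 0.0506 FPKM in calves and at 2.88, 2.99 and 3.60 FPKM in bulls and rose by 1.85 (adjusted p = 9.5e-05). The platelet-derived growth factor system, through which myoid precursors are recruited, went the other way. PDGFA fell by 2.77 (adjusted p = 0.000312) from 23.6, 23.0 and 15.2 FPKM to 1.43, 2.16 and 2.93 FPKM. PDGFRB, a receptor gene of the same system, fell by 2.23 (adjusted p = 0.00685), and TGFB2, a growth factor gene, fell by 1.72 (adjusted p = 0.00599). Without calf 3 the changes were 1.78 for OXTR, -2.97 for PDGFA, -2.75 for PDGFRB and -2.06 for TGFB2, all called. EDNRA, the endothelin receptor that smooth muscle answers to, stood at 40.8, 27.0 and 1.34 FPKM in calves and at 3.79, 7.67 and 5.87 FPKM in bulls, with a change of -1.09 (adjusted p = 0.432), and of -2.38 without calf 3 (adjusted p = 0.000501), and was called lower in 5 of the 18 alternatives.

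Among the transcription regulators, 1 of 10 tested was called higher and 3 lower (1 and 4 without calf 3). The shares over all genes tested were 35.7% and 9.61% (37.9% and 13.6% without calf 3). SRF, the factor that drives smooth muscle genes, stood between 5.25 and 8.28 FPKM in all libraries (0.19, adjusted p = 0.425, and 0.05 without calf 3), and its sign turned with the scaling (-0.46 at the lowest). MYOCD (myocardin), its partner in smooth muscle, stood between 0.160 and 0.627 FPKM, under the filter, and was not tested. KLF4, a factor that round spermatids and other cells also make, rose by 3.09 (adjusted p = 0.000434) from 4.75, 5.57 and 1.94 FPKM to 40.4, 36.6 and 43.2 FPKM. NR2F2, a factor of interstitial stromal cells, fell by 1.94 (adjusted p = 0.000377) and FHL2, a partner of SRF, fell by 1.35 (adjusted p = 0.00481). Without calf 3 the changes were 2.74 for KLF4, -2.02 for NR2F2 and -1.52 for FHL2, all called. TCF21, a factor of stromal progenitors, stood at 39.9, 24.7 and 0 FPKM in calves and at 1.27, 1.70 and 1.54 FPKM in bulls, with a change of -2.03 (adjusted p = 0.258), and of -3.70 without calf 3 (adjusted p = 2.7e-05), and was called lower in 5 of the 18 alternatives.

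**Figure D5:**
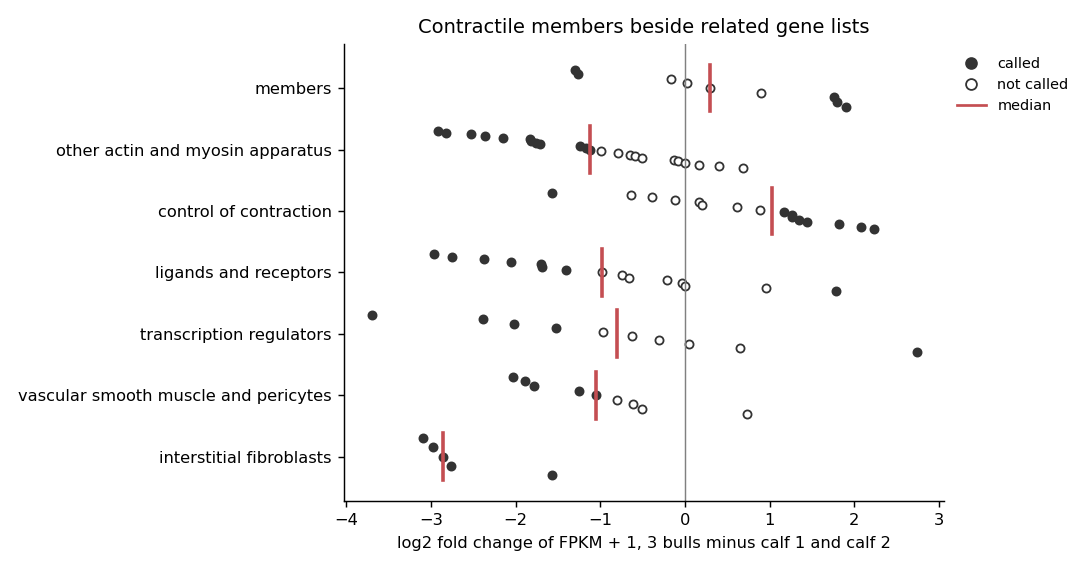
Log2 fold change of FPKM + 1, the 3 bulls minus calf 1 and calf 2 (horizontal axis), for each tested gene of 7 lists (rows), filled where called, with the median of each list in red. Called members lie on both sides of 0, with a median of 0.29, and the medians of the other actin and myosin genes and of the ligands and receptors lie near -1.

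Markers of other cells of the testis differed between the ages as well, and their part in the results was not tested. The counts below stand beside 35.7% of all genes tested called higher and 9.61% lower (37.9% and 13.6% without calf 3). Of the markers of vascular smooth muscle and pericytes, 0 of 9 tested were called higher and 4 lower (0 and 5 without calf 3). The summed FPKM of the 11 listed was 65.0, 53.7 and 116.5 in calves and 25.4, 26.7 and 26.8 in bulls. The sum was lower in bulls, but the single markers were not all so. RGS5, NOTCH3, CSPG4, MCAM, HIGD1B and HEYL were lower in every bull than in every calf. ABCC9, which was not called, and NDUFA4L2, which was under the filter, were higher in every bull. Over all genes tested, 21.3% were lower in every bull than in every calf and 46.1% were higher. Fibroblast markers summed to 673.1, 327.2 and 28.1 FPKM in calves and to 46.5, 67.5 and 64.5 FPKM in bulls, with 1 of 5 called lower, and 5 of 5 without calf 3. In germ cells all 6 markers were called higher, from sums of 2.61 to 25.5 FPKM in calves to 12270 to 13890 FPKM in bulls. Sertoli cell markers summed to 2811, 2678 and 437.3 FPKM in calves and to 377.7, 377.6 and 394.7 FPKM in bulls, with 1 of 7 called lower (7 without calf 3), and none of the 6 Leydig cell markers was called. Of the 14 striated muscle markers found in the table, 9 were under the filter, ACTA1, MYH1, MYH2, MYH7, CKM and MB among them, and 1 of the 5 tested, NEB, was called higher.

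The genes outside the lists whose levels ran most like the mean of the 9 members over the 6 libraries were PAFAH2 (Pearson r = 0.9993), EMG1 (0.9988), ATP6V0E1 (0.9985), WEE1 (0.9985) and SMN2 (0.9979), of 13265 genes ranked. The mean log2(FPKM + 1) of the members was 2.77, 2.82 and 1.62 in the calves and 3.34, 3.23 and 3.13 in the bulls. The likeness rests on the low value of calf 3 and on the step between the ages, which the libraries of each age share, and it is given as a description.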

How the data were processed

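Total RNA of 6 testes was depleted of ribosomal RNA and made into strand-specific libraries by the authors, who matched reads to ribosomal RNA with Bowtie2, mapped the rest (TopHat2) and built transcript models (StringTie). The deposited tables give FPKM per gene and per transcript. The tool that made these FPKM values is not given in the sources used here. The methods name UMD3.1.1, but 99.4% of 16434 genes matched by symbol, and all 9 members, overlapped the locus of the same symbol in RefSeq's ARS-UCD2.0, so positions, printed as the tables give them, were read as those of an ARS-UCD assembly.

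Values were transformed to log2(FPKM + 1) after the filter (FPKM of at least 1 in 3 libraries) and fitted with limma 3.58.1 in R 4.3.3, with an empirical Bayes trend, two-sided, and Benjamini-Hochberg adjustment over all genes, or all transcripts, tested. Plots used matplotlib 3.10.9 under Python 3.11.15. The script was tested on data simulated with the spread of the bulls in all libraries, so without a library like calf 3. With 200 features changed by 2 on the log2 scale, it recovered 85.5% of the genes and 79.5% of the transcripts. There were 4 false calls for genes and 8 for transcripts. Fold changes on this scale understate those of low genes. Each library is 1 animal, so errors cover animals.

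Named beside the members were the 4 genes of each pathway list with the largest change, and fixed genes (MYL9, TPM2, CALD1, ACTB, ACTG1, MYH9, MYH10, SRF, MYOCD, EDNRA). Of the fixed genes, 1 is not reported here. VIM and CNN2 were named for their ratios, and DGUOK, NDE1 and PCSK7 for their place, after their values were seen. ACTN1 and the single vascular markers were named for their direction, also after their values were seen. The members, lists and ratios were chosen with earlier results of these data known. A symbol with several entries was read from its first. Tried as alternatives were other pseudocounts, filters, scalings, weights, a replicate block and fits without each library.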

Additional observations from a re-analysis of the deposited data

How the results depend on the processing

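Of 18 alternatives for each result, 3 (other scalings without calf 3) were chosen after seeing the data. The number of member genes and of member transcripts called higher stayed within 1.5 times that reported in all 18, and ACTA2, MYH11 and ACTG2 were called in each. The numbers called lower, 0 as reported, were 2 for genes and 2 for transcripts with array weights, and with quantile or median of ratios scaling without calf 3, and ran from 0 to 2 when 1 library was left out (2 without calf 3). The median log2 fold change of the members, 0.85, was 0.17 with quantile normalization and 0.29 with array weights, -0.51 and 0.083 with quantile and median of ratios scaling without calf 3, and from 0.29 to 1.04 when 1 library was left out. Other pathway genes called higher numbered 8, and 2 with quantile normalization, 3 with median of ratios scaling, 5 with quantile normalization without calf 3, 15 with rescaling to an equal sum of FPKM without calf 3, and 5 to 10 when 1 library was left out (5 without bull 1 or bull 2). Those called lower numbered 19, and 29 with quantile normalization, 36 with it and 30 with median of ratios scaling without calf 3. Signs turned for genes that were not called in either setting. CNN1 came to -0.51 and -0.29 with quantile and median of ratios scaling without calf 3. LMOD1 came to -0.58 with quantile normalization (adjusted p = 0.0351) and -0.57 with it without calf 3 (adjusted p = 0.0389). Both values passed the p threshold and not the fold. SMTN came to -0.20 with quantile normalization, -0.15 with array weights, and -0.70 and -0.48 with quantile and median of ratios scaling without calf 3. The values of -0.70 and -0.48 also passed the p threshold and not the fold (adjusted p = 0.00471 and 0.0191). Leaving out 1 library gave -1.30 to 0.41 for DES, -1.26 to 0.13 for MYLK and -0.16 to 0.62 for SMTN. The cause was not tested. Calves and bulls share replicate numbers, but the deviations of samples with the same number correlated at 0.03, 0.03 and 0.03 and were not treated as paired. With a replicate block, 3 member genes and 4 member transcripts were called higher and 0 lower, and of the other pathway genes 8 were higher and 20 lower. Counts of reads were not at hand, so what depth limits could not be told.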
